A study of Mus musculus with 29 samples.

Results

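Release of neurotransmitter in the mouse retina was examined through the genes of the synaptic vesicle and of the SNARE complexes that fuse it. The members were chosen by symbol: the numbered synaptotagmins (Syt), syntaxins (Stx) and vesicle-associated membrane proteins (Vamp), the synapsins Syn1, Syn2 and Syn3, Sv2a, Sv2b and Sv2c, Snap23, Snap25, Snap29, Snap47 and Snap91, Rab3a, Rab3b, Rab3c and Rab3d, Cplx1, Cplx2 and Syp. A gene was a member where at least 1 probe set of the array was annotated with that symbol alone. This gave 55 genes of 18194, measured by 132 of 45101 probe sets. RNA had been pooled from dissected retinas of 5 strains, CAST/EiJ, AKR/J, RD7, NOD.NON-H2-nb1 and C57BL6/J, at 2 ages, the postnatal P30.5 and the embryonic E18.5. CAST/EiJ is an inbred strain derived from wild mice, RD7 bears the name of a retinal degeneration mutation, and C57BL6/J was the strain to which the others were compared. No treatment was named for any group. There were 3 arrays of each strain and age, but 2 of AKR/J at E18.5, and each array carried RNA of 10 retinas, so that p-values measure the spread between pools.

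In a synapse, vesicle SNAREs such as the Vamp proteins pair with target SNAREs, a syntaxin and a SNAP-25 family protein, and the pairing pulls the vesicle and plasma membranes together. Synaptotagmins sense calcium, complexins hold the assembled SNAREs until calcium enters, and synapsins, SV2 proteins, synaptophysin (Syp) and Rab3 GTPases cluster, prepare and tether the vesicles. In the mouse retina, photoreceptors and bipolar cells release at ribbon synapses, which use syntaxin 3 and their own complexins, whereas amacrine cells have conventional synapses, and most of these contacts form after birth.

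Stretches of sequence around the transcription starts of 4 members are shown, because they hold the motifs searched for in genes whose values are described next. A window of 300 bases (250 before the start and 50 from the start on, RefSeq, assembly GRCm38.p6) was given for 44 of the 55 members, as 60 windows of 32851 in all. Capitals mark TTCAGCACC, one end of the RE1 element of neuronal genes, and TGACGTCA, the cAMP response element, in Syn1 (chrX:20920869-20921168, minus strand), and TAATCC, the core that OTX and CRX factors of photoreceptors read, in Sv2b (chr7:75309213-75309512, minus strand), Stx3 (chr19:11819354-11819653, minus strand) and Syp (chrX:7638330-7638629, plus strand, where it lies on the opposite strand and reads GGATTA).
Syn1: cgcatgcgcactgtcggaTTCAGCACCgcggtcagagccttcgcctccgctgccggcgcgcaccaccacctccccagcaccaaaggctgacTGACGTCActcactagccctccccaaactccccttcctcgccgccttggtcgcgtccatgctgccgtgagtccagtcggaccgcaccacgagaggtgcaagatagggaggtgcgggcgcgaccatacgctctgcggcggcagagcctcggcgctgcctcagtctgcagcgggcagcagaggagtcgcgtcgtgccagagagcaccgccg
Sv2b: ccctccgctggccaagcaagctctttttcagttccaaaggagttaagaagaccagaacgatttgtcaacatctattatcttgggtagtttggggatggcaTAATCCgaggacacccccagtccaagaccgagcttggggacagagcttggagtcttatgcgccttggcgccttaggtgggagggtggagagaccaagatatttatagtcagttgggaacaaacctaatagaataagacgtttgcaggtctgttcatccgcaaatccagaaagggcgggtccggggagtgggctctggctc
Stx3: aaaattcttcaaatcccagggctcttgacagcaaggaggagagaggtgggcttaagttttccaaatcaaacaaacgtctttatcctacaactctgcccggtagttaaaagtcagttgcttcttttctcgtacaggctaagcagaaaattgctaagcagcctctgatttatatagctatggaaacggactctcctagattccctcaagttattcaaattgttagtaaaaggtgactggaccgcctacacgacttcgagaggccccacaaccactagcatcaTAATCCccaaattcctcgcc
Syp: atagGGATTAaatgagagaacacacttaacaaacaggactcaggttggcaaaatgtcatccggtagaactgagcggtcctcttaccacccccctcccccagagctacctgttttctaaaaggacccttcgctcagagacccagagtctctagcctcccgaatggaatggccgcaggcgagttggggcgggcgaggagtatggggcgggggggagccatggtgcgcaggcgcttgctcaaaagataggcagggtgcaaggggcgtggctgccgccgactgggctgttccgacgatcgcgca
Both strands were searched. TTCAGCACC was in 0.371% of all windows and, among the members, in that of Syn1, from base -232 to base -224 before the start. TGACGTCA, a palindrome, was in 1.79% of all windows and in that of Syn1. TAATCC was in 4 of the 60 member windows and in 7.06% of all windows, so that its share among the members was close to that among all genes. GGGCGG, the GC box, was in 39 of the 60 member windows and in 35.7% of all windows. A match describes the letters of a window and is not a binding site.

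Expression was read as RMA values, a log2 scale on which a difference of 1 is a factor of 2, for the 45 members with a probe set in that table. The other 10 members (Rab3a, Snap25, Stx16, Stx19, Stx7, Sv2a, Syp, Syt5, Syt8 and Vamp8) had MAS5 signals alone, a linear intensity that was tested on the log2 scale. A gene with several probe sets was represented by its brightest one on the scale used. Values of different probe sets do not rank genes. A gene was called changed where limma gave an adjusted p under 0.001 and the difference was at least 2-fold, with p-values adjusted over the whole table. Pools of the same strain and age correlated at 0.931 to 0.991 over all RMA probe sets. Marker genes of rods and cones averaged 13.4 to 14.4 on the log2 MAS5 scale at P30.5, against 6.81 to 8.88 at E18.5. Those of bipolar cells averaged 10.8 to 11.8, against 5.56 to 6.96, and those of dividing cells 2.86 to 5.88, against 12.0 to 12.6. In pooled tissue, more cells of a type and more RNA per cell cannot be told apart. At E18.5, markers of skeletal muscle averaged 7.63 to 11.1 in CAST/EiJ, 11.9 to 12.0 in AKR/J, 6.94 to 12.0 in RD7, 6.0 to 11.1 in NOD.NON-H2-nb1 and 5.49 to 5.70 in C57BL6/J, and markers of the mesenchyme around the eye averaged 7.31 to 11.4, 11.7 to 11.9, 7.68 to 11.8, 5.72 to 9.42 and 5.00 to 7.61 in the same order of strains.

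To determine how these genes changed as the retina matured, P30.5 was compared with E18.5 within each strain. More members were higher than lower at P30.5 in every strain. In CAST/EiJ 10 members were higher and 3 were lower, in AKR/J 14 and 2, in RD7 11 and 6, in NOD.NON-H2-nb1 8 and 5, and in C57BL6/J 12 and 4. Among all RMA probe sets, 7.44% were called higher and 7.96% lower in CAST/EiJ (15.4% in all), 8.34% and 8.39% in AKR/J (16.7%), 7.62% and 9.4% in RD7 (17%), 8.28% and 8.66% in NOD.NON-H2-nb1 (16.9%) and 8.25% and 9.76% in C57BL6/J (18%). Among all MAS5 probe sets 10.2%, 8.57%, 9.74%, 10.1% and 10.4% were called in the same order of strains. The called members made up 23.6% of the 55 in CAST/EiJ, 29.1% in AKR/J, 30.9% in RD7, 23.6% in NOD.NON-H2-nb1 and 29.1% in C57BL6/J. The median log2 difference over the members was 0.26, 0.45, 0.29, 0.22 and 0.19 in the same order of strains, whereas that over all RMA probe sets lay between -0.04 and 0.01. With MAS5 signals for every member, 11 members were higher and 2 lower in CAST/EiJ, 10 and 0 in AKR/J, 12 and 3 in RD7, 6 and 3 in NOD.NON-H2-nb1 and 9 and 3 in C57BL6/J. The AKR/J count was 10 without 1 of its 2 E18.5 arrays, and the RD7 count was 8 without the 2 E18.5 arrays whose muscle markers averaged over 8, which left 1. Each label holds a date, called the array date here, although the labels do not say what was dated. With the array date as a block, 16 members were called in CAST/EiJ, 19 in AKR/J, 18 in RD7, 15 in NOD.NON-H2-nb1 and 17 in C57BL6/J, and the calls gained or lost are given with each gene.

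The same call was made in every strain for a small group. Vamp1, Sv2a, Sv2b, Syn2 and Syt1 were higher at P30.5 in all 5 strains, and Stx2 was lower in all 5. Among all RMA probe sets 3.76% were higher in all 5 strains and 4.24% were lower, and among MAS5 probe sets 2.78% were higher and 2.14% lower. No member was called in opposite directions in different strains, and 31 members were called in none, while 0.0385% of all 18194 genes were called in opposite directions and 73.9% in no strain. When arrays were compared without regard to strain, all 15 P30.5 arrays lay above all 14 E18.5 arrays for 11 members and below them for 5, where 7.11% and 8.65% of RMA probe sets and 5.16% and 5.09% of MAS5 probe sets did so.

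**Figure D1:**
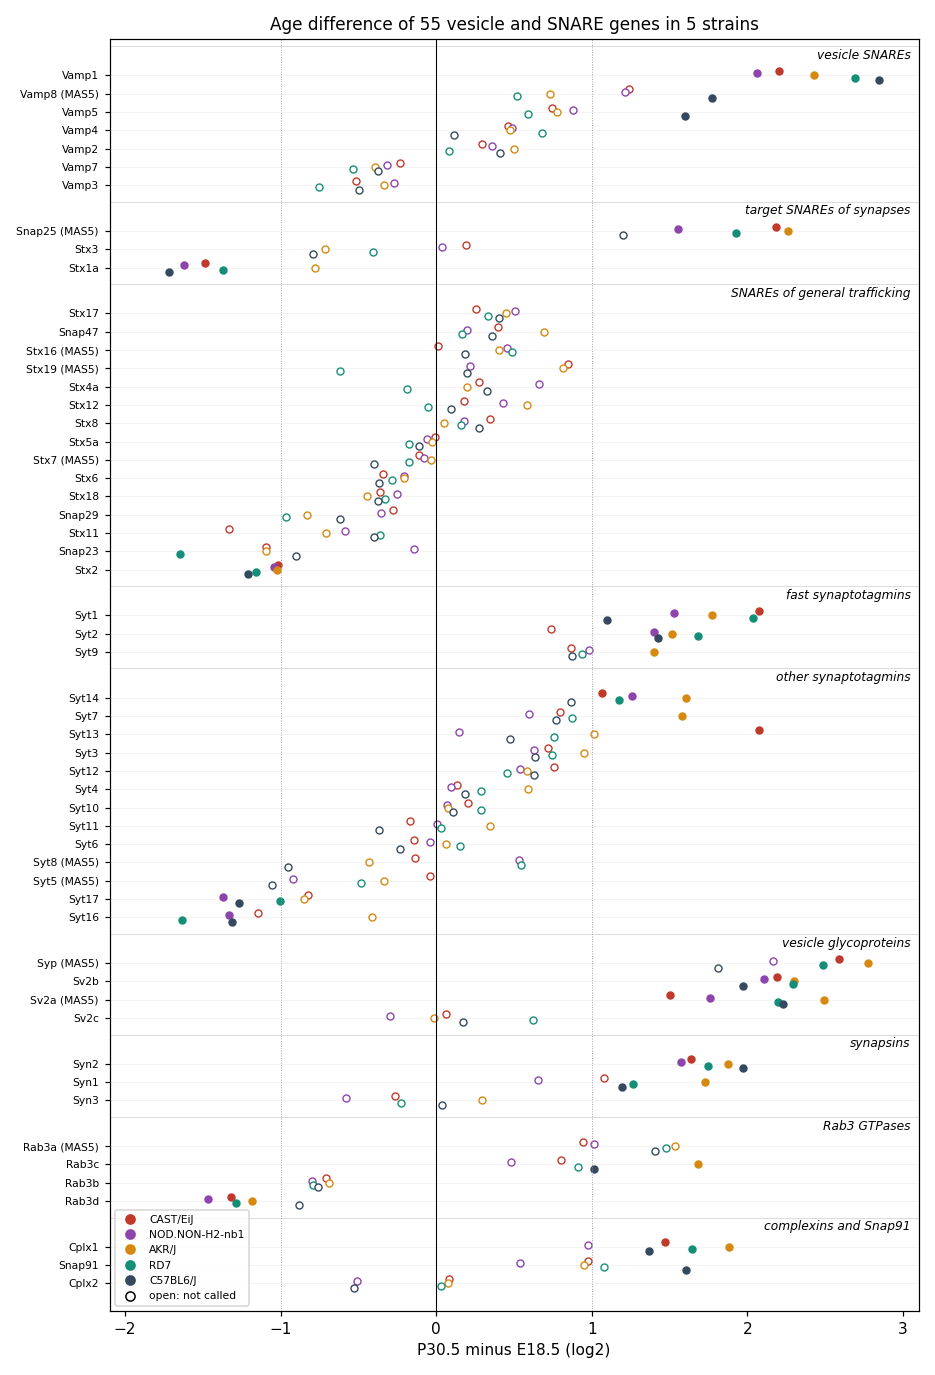
The log2 difference of P30.5 minus E18.5 is plotted for the 55 members (rows, grouped by role) in each of the 5 strains (colours), with filled points for differences that were called and open points for the others. Vamp1, Sv2b, Sv2a, Syn2 and Syt1 have filled points right of 0 in all 5 strains, and Stx2 has them left of 0.

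Vesicle SNAREs were led by Vamp1, a partner of neuronal syntaxin and SNAP-25 closely related to Vamp2. Its RMA values in CAST/EiJ were 8.57, 8.21 and 8.28 at P30.5, against 6.24, 6.31 and 5.89 at E18.5. In AKR/J they were 9.13, 8.45 and 8.51, against 6.47 and 6.06, and NOD.NON-H2-nb1 had 8.66, 8.21 and 8.43, against 6.44, 6.20 and 6.48. RD7 and C57BL6/J had the highest P30.5 means, and no P30.5 array of any strain overlapped an E18.5 array. In RD7 the values were 9.13, 8.87 and 9.14, against 6.24, 6.39 and 6.43, and in C57BL6/J 9.47, 8.98 and 9.22, against 6.59, 6.24 and 6.30. Vamp1 rose by 2.21 ± 0.18, 2.43 ± 0.20, 2.69 ± 0.18, 2.06 ± 0.18 and 2.84 ± 0.18 (log2, SE) in CAST/EiJ, AKR/J, RD7, NOD.NON-H2-nb1 and C57BL6/J, with limma adjusted p between 5.62e-12 and 1.8e-09.

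Vamp2, the main vesicle SNARE of brain synapses, gave different answers by probe set. Its RMA probe set differed by 0.08 to 0.50 between the ages and was called in 0 strains. Another, 1420834_at, measured by MAS5 alone, was 1.99 to 2.65 higher at P30.5 and was called in CAST/EiJ (adjusted p = 0.000289) but missed the threshold in the other 4. Vamp5, best known from muscle, rose in C57BL6/J (1.60 ± 0.28, adjusted p = 4.73e-05), where its E18.5 arrays were the lowest of the series, at 4.72, 4.81 and 4.71. The endosomal Vamp8 was called in C57BL6/J (1.77 ± 0.32 on the log2 MAS5 scale, adjusted p = 0.000198), but with the array date as a block its difference was 1.66 and its adjusted p 0.00176, and the call was lost. Vamp3, Vamp4 and Vamp7, which serve endosomes and other membranes, were called in 0 strains on the RMA scale. Their differences ranged over -0.75 to -0.27, 0.12 to 0.68 and -0.53 to -0.23. A second probe set of Vamp7, 1452007_at, fell by 1.36 in both RD7 and C57BL6/J, with adjusted p of 0.000873 and 0.000870.

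The target SNAREs of synapses moved in opposite directions. Snap25, the SNAP-25 protein of neurons, had MAS5 signals of 11586.5 to 22447 over the 15 P30.5 arrays (median 17876), against 1892 to 8053 over the 14 E18.5 arrays (median 4940). It rose in CAST/EiJ (2.18 ± 0.27), AKR/J (2.26 ± 0.30), RD7 (1.93 ± 0.27) and NOD.NON-H2-nb1 (1.55 ± 0.27). In C57BL6/J the arrays read 15510, 22447 and 16198 at P30.5, against 7173, 8053 and 8040 at E18.5, a difference of 1.20 ± 0.27 with an adjusted p of 0.0016, and it was called there with the array date as a block (1.08, adjusted p = 0.000693). Stx1a, the plasma membrane syntaxin of conventional synapses, went the other way. Its RMA values in CAST/EiJ were 8.05, 8.28 and 8.06 at P30.5, against 9.55, 10.001 and 9.31 at E18.5, and in C57BL6/J they were 8.05, 7.47 and 8.02, against 9.56, 9.61 and 9.53. In AKR/J they were 8.49, 8.14 and 7.98, against 8.95 and 9.02, the narrowest gap of the 5 strains. Stx1a fell by 1.49 ± 0.19, 1.37 ± 0.19, 1.62 ± 0.19 and 1.72 ± 0.19 in CAST/EiJ, RD7, NOD.NON-H2-nb1 and C57BL6/J, and in AKR/J it differed by -0.78 ± 0.21 (adjusted p = 0.00456).

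Stx3 encodes the syntaxin of ribbon synapses, and its 4 probe sets did not behave alike. The one with the highest mean RMA value, 1434559_at, was called in 0 strains, with differences between -0.79 and 0.19. The other RMA probe set, 1426151_a_at, read 5.84 to 7.08 over the P30.5 arrays, against 4.02 to 4.75 over the E18.5 arrays, and rose in all 5 strains, by 2.14 ± 0.22, 2.09 ± 0.24, 1.44 ± 0.22, 2.35 ± 0.22 and 1.97 ± 0.22 in CAST/EiJ, AKR/J, RD7, NOD.NON-H2-nb1 and C57BL6/J. Probe sets 1425530_a_at and 1425536_at, on the log2 MAS5 scale, also rose in all 5, by 3.38 to 4.28 and by 1.25 to 2.10. The Stx3 window printed above holds TAATCC from base 30 to base 35 after the start.

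**Figure D2:**
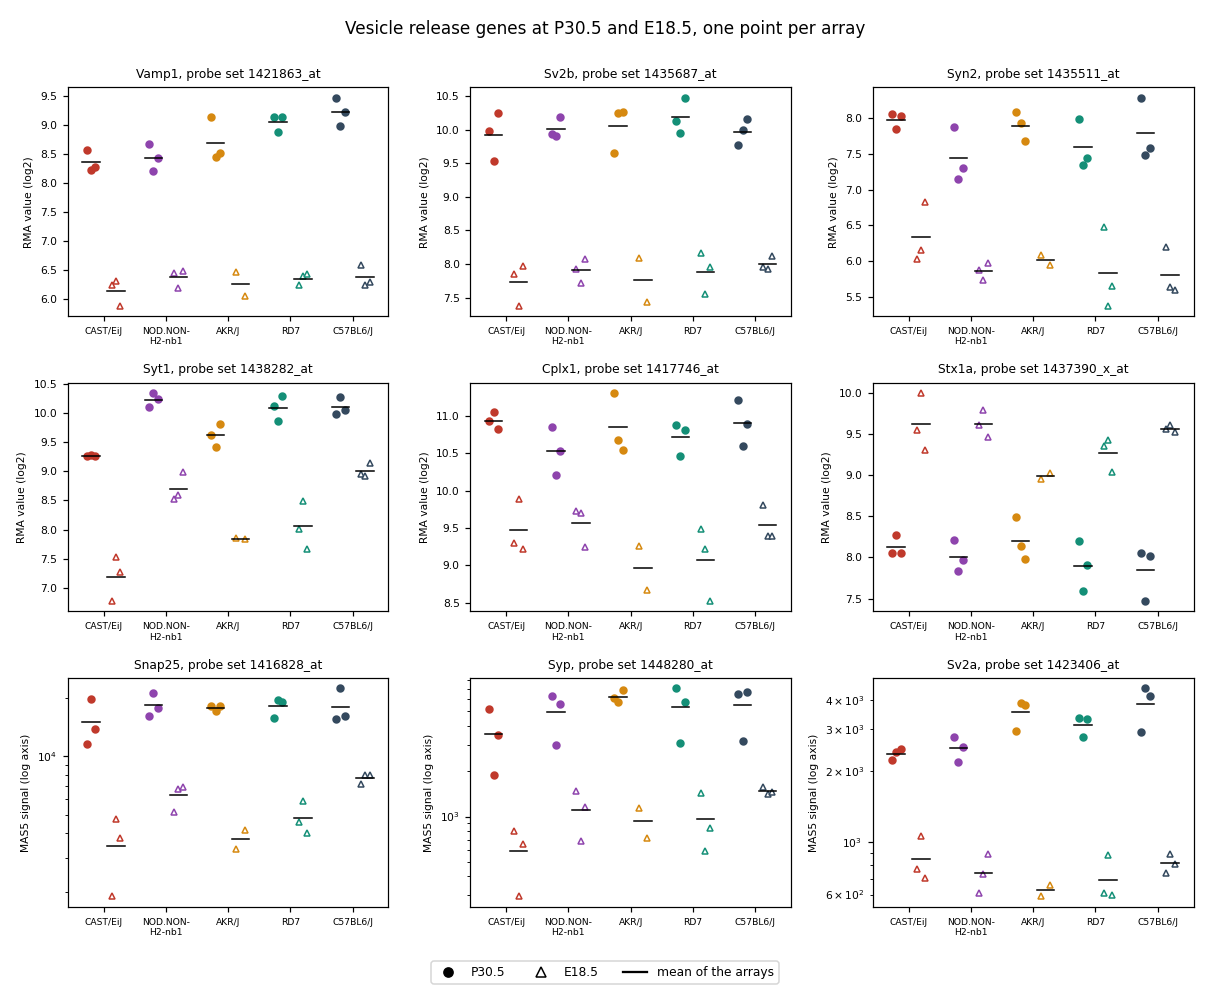
Each point is 1 array, plotted for 9 members by strain, with P30.5 arrays as circles to the left of E18.5 arrays as open triangles. Vamp1, Sv2b, Syn2, Syt1, Cplx1 and Stx1a are RMA values (log2), and Snap25, Syp and Sv2a are MAS5 signals on a log axis. In 8 of the panels all P30.5 arrays lie above all E18.5 arrays, and in the Stx1a panel they lie below.

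Among the fast calcium sensors, Syt1, Syt2 and Syt9, each member had all P30.5 arrays above all E18.5 arrays. Syt1, the sensor of most forebrain synapses, had RMA values of 9.26 to 10.34 (median 9.98), against 6.77 to 9.15 (median 8.25). It rose by 2.07 ± 0.19 in CAST/EiJ, 1.78 ± 0.21 in AKR/J, 2.04 ± 0.19 in RD7, 1.53 ± 0.19 in NOD.NON-H2-nb1 and 1.10 ± 0.19 in C57BL6/J. On this probe set, 1438282_at, CAST/EiJ lay below C57BL6/J at both ages, by more at E18.5 (-1.81) than at P30.5 (-0.84). At E18.5 CAST/EiJ read 6.77, 7.53 and 7.27 and C57BL6/J 8.95, 8.92 and 9.15. The Syt1 probe set 1433884_at differed by 0.29 at E18.5 on the log2 MAS5 scale. Syt2, the fast sensor of hindbrain synapses, rose in AKR/J, RD7, NOD.NON-H2-nb1 and C57BL6/J, by 1.40 to 1.68, and differed by 0.74 in CAST/EiJ (adjusted p = 0.00171). Syt9 rose in AKR/J (1.40 ± 0.17) and was 0.87 to 0.98 higher in the other strains, under the 2-fold limit although each adjusted p was under 0.001.

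The other synaptotagmins had no shared direction. Of 13, Syt14, Syt7 and Syt13 were called higher in at least 1 strain, Syt16 and Syt17 were called lower, and 8 were called in none. Syt14, a member without calcium binding, rose in CAST/EiJ, AKR/J, RD7 and NOD.NON-H2-nb1, by 1.07 to 1.61, and Syt7, a slower calcium sensor, rose in AKR/J (1.58 ± 0.28, adjusted p = 6.44e-05). Syt16 had 6.28 to 7.59 over the P30.5 arrays, against 7.61 to 8.99 over the E18.5 arrays, and fell in RD7, NOD.NON-H2-nb1 and C57BL6/J, by 1.63, 1.33 and 1.32. In CAST/EiJ it differed by -1.15 (adjusted p = 0.00106), and it was called there with the array date as a block (adjusted p = 0.000227). Syt17 had 5.70 to 7.26, against 7.27 to 8.19, and fell in RD7, NOD.NON-H2-nb1 and C57BL6/J, by 1.001, 1.37 and 1.27. The arrays of both genes separated completely by age. Syt3, Syt12, Syt4, Syt5, Syt6, Syt8, Syt10 and Syt11 passed in 0 strains, and of these Syt3 (0.63 to 0.95) and Syt12 (0.45 to 0.75) were higher at P30.5 in value in all 5 strains. Syt3 was called in AKR/J with the array date as a block (1.01, adjusted p = 0.000282).

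Of the vesicle glycoproteins, Sv2a, Sv2b and Syp rose and Sv2c did not pass the test. Sv2b had RMA values of 9.53 to 10.48 (median 9.99) at P30.5, against 7.38 to 8.16 (median 7.94) at E18.5, and rose by 2.19 ± 0.22, 2.30 ± 0.25, 2.30 ± 0.22, 2.11 ± 0.22 and 1.97 ± 0.22 in CAST/EiJ, AKR/J, RD7, NOD.NON-H2-nb1 and C57BL6/J. Sv2a, its relative found at most synapses, had MAS5 signals of 2182 to 4473 (median 2930), against 589 to 1065 (median 736), and rose by 1.51 to 2.49 in the 5 strains. Both members thus had gaps between the ages that no array bridged. Syp, the abundant vesicle membrane protein synaptophysin, read 5211, 1896 and 3475 at P30.5 in CAST/EiJ, against 805, 295 and 662 at E18.5. In C57BL6/J it read 6495, 3180 and 6744, against 1579, 1404 and 1462, and its lowest P30.5 array of the series still lay above every E18.5 array. Syp rose in CAST/EiJ (2.59 ± 0.46), AKR/J (2.78 ± 0.51) and RD7 (2.49 ± 0.46), and in NOD.NON-H2-nb1 (2.17 ± 0.46) and C57BL6/J (1.81 ± 0.46) its adjusted p was 0.00101 and 0.00469. With the array date as a block Syp was called in all 5 strains, with adjusted p between 1.02e-09 and 8.44e-08. Its second probe set, 1456249_x_at, was called in 0 strains on the MAS5 scale, with differences of -1.21 to 1.40. Sv2c, the SV2 protein of a few neuron types, read 3.69 to 4.67 at P30.5, against 3.55 to 4.31 at E18.5, and was called in 0 strains.

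The synapsins bind vesicles to each other and to actin. Syn2 had RMA values of 7.14 to 8.28 (median 7.84), against 5.38 to 6.82 (median 5.96), and rose by 1.64 ± 0.27, 1.87 ± 0.30, 1.75 ± 0.27, 1.57 ± 0.27 and 1.97 ± 0.27 in CAST/EiJ, AKR/J, RD7, NOD.NON-H2-nb1 and C57BL6/J. Syn1, whose window holds the 2 motifs in capitals above, rose in AKR/J (1.73 ± 0.30), RD7 (1.27 ± 0.27) and C57BL6/J (1.19 ± 0.27), and was 1.08 higher in CAST/EiJ (adjusted p = 0.00221) and 0.66 higher in NOD.NON-H2-nb1 (adjusted p = 0.0520). With the array date as a block Syn1 was called in CAST/EiJ too (1.08, adjusted p = 1.59e-05). In C57BL6/J the call for Syn1 was lost on leaving out any of 5 arrays. Syn3, the synapsin of early neurons, differed by -0.58 to 0.30 and was called in 0 strains.

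The Rab3 GTPases split. Rab3a, the main Rab3 of synaptic vesicles, was 0.95 to 1.53 higher at P30.5 on the log2 MAS5 scale and was called in 0 strains, with the lowest adjusted p in RD7, 0.00101. With the array date as a block it was called in AKR/J (1.63), RD7 (1.48), NOD.NON-H2-nb1 (1.01) and C57BL6/J (1.32), with adjusted p between 9.03e-06 and 0.000449. A second probe set, 1422589_at, was called higher in 3 strains. Rab3c rose in AKR/J (1.68 ± 0.22) and C57BL6/J (1.02 ± 0.20), but the call in C57BL6/J was lost with the array date as a block (0.99). These values come from probe set 1435047_at. The other 2 RMA probe sets of Rab3c were called in 0 strains, with 0.42 (1432432_a_at) and 0.04 (1449494_at) in AKR/J and, of the opposite sign, -0.26 and -0.28 in C57BL6/J. Rab3d, known from secretory cells, was lower on every P30.5 array, with 5.44 to 6.66, against 6.92 to 8.16 at E18.5. It fell by 1.32, 1.18, 1.29 and 1.47 in CAST/EiJ, AKR/J, RD7 and NOD.NON-H2-nb1, and differed by -0.88 in C57BL6/J (adjusted p = 0.00152). These values come from probe set 1418891_a_at. The RMA probe set 1418890_a_at was called in AKR/J (-1.38), RD7 (-1.51) and C57BL6/J (-1.15) but not in CAST/EiJ (-1.004) or NOD.NON-H2-nb1 (-0.95), and 1449260_at was called in 0 strains, with differences of -0.27 to 0.24. Rab3b differed by -0.80 to -0.69 in the 5 strains and was called in 0.

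Complexin 1, the clamp of conventional synapses (Cplx1), had RMA values of 10.21 to 11.31 (median 10.83), against 8.52 to 9.88 (median 9.34). It rose by 1.47 ± 0.25, 1.88 ± 0.28, 1.64 ± 0.25 and 1.37 ± 0.25 in CAST/EiJ, AKR/J, RD7 and C57BL6/J, and in NOD.NON-H2-nb1 it was 0.98 ± 0.25 higher (adjusted p = 0.00297). Its other RMA probe set, 1417747_at, was 0.37 to 0.68 higher and was called in 0 strains. Its relative Cplx2 differed by -0.53 to 0.09 and was called in 0 strains. Snap91, a clathrin adaptor that retrieves vesicle membrane, rose in C57BL6/J on the RMA scale (1.61 ± 0.29, adjusted p = 7.94e-05). Its brightest MAS5 probe set, 1416688_at, rose in all 5 strains, by 1.52 to 2.01.

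The 15 SNAREs of general trafficking serve the Golgi, endosomes and plasma membrane, and 13 of them were called in 0 strains. Among these, Stx19 had low MAS5 signals, with group means from 11.5 (CAST/EiJ at E18.5) to 31.6 (AKR/J at P30.5). Stx2, a plasma membrane syntaxin of many tissues, read 6.80 to 7.57 (median 7.25) at P30.5, against 8.01 to 8.64 (median 8.38) at E18.5. It fell by 1.02 ± 0.16, 1.02 ± 0.18, 1.16 ± 0.16, 1.04 ± 0.16 and 1.21 ± 0.16 in CAST/EiJ, AKR/J, RD7, NOD.NON-H2-nb1 and C57BL6/J. Its arrays separated by age, but its differences in all strains other than RD7 and C57BL6/J were close to the 2-fold limit, and leaving out a single array took 1 of them under it in 8 cases, as far as -0.94. Snap23, the SNAP-25 protein of non-neuronal cells, fell in RD7 (1.65 ± 0.34, adjusted p = 0.000352), while its other 2 RMA probe sets were called in 0 strains. With the array date as a block it was also called in CAST/EiJ (-1.09, adjusted p = 0.000471) and AKR/J (-1.21, adjusted p = 0.000591). The Golgi syntaxin Stx5a read 10.40 to 10.80 at P30.5, against 10.39 to 10.80 at E18.5. The differences of the trans-Golgi syntaxin Stx6 (-0.37 to -0.21) and the endosomal Stx8 (0.05 to 0.35) were likewise small in all 5 strains.

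Other genes of the release machinery, outside the symbols of the rule, were given from a list of 51, of which 42 had RMA values. The list was chosen with earlier results of these data known, so that its shares are not an independent test. In all 5 strains 16 of the 51 were higher at P30.5 (31.4%) and 1 was lower (1.96%), where 4.35% and 4.42% of all 18194 genes were, each represented as the members were. In CAST/EiJ 22 were higher and 2 lower, in AKR/J 29 and 2, in RD7 21 and 1, in NOD.NON-H2-nb1 16 and 1, and in C57BL6/J 19 and 1. Of all genes, 7.21% were higher and 7.77% lower in CAST/EiJ, 8.37% and 7.82% in AKR/J, 7.29% and 8.88% in RD7, 8.4% and 7.87% in NOD.NON-H2-nb1 and 8.3% and 8.41% in C57BL6/J. The complexins of ribbon synapses, Cplx4 and Cplx3, rose by 6.696 to 8.07 and by 3.00 to 4.16 on the log2 MAS5 scale, and Slc17a7, the vesicular glutamate transporter of photoreceptors and bipolar cells, by 4.64 to 6.97. The active zone protein Rims2 (2.58 to 3.04), the priming factor Unc13c (1.78 to 3.11), the SNARE recycling proteins Nsf (2.35 to 2.84) and Napb (2.11 to 3.22), and Slc32a1, the vesicular transporter of inhibitory neurons (2.16 to 3.27), also rose in all 5. Syngr2, a synaptogyrin of non-neuronal cells, fell by 1.46 to 1.80.

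Strains were then compared within an age, with C57BL6/J as the common partner, so that the comparisons at one age share its arrays. At E18.5, Syt1 and Syt13 were lower in CAST/EiJ and Syt1 was lower in AKR/J, and 0 members were called in RD7 and NOD.NON-H2-nb1. Among all RMA probe sets 7.84% were called in CAST/EiJ, 4.38% in AKR/J, 0.295% in RD7 and 1.63% in NOD.NON-H2-nb1 (of MAS5 probe sets 4.47%, 0.947%, 0.02% and 0.539%). The members' 2 calls in CAST/EiJ were 3.64% of the 55, below both shares, and the 1 call in AKR/J was 1.82%, below the RMA share and above the MAS5 share. At P30.5, 0 members were called in any strain, where 6.73%, 1.69%, 0.33% and 1.64% of RMA probe sets and 3.67%, 0.596%, 0.104% and 0.565% of MAS5 probe sets were called in CAST/EiJ, AKR/J, RD7 and NOD.NON-H2-nb1. At an unadjusted p under 0.05, limma gave 15, 11, 7 and 2 members at E18.5 and 14, 6, 2 and 5 at P30.5 in the same order. Of all 18194 genes, each represented as the members were, 29.1%, 24.8%, 16.4% and 11.1% passed that limit at E18.5 and 27.2%, 13.7%, 7.91% and 12.3% at P30.5. At an adjusted p under 0.05 with no minimum fold, 5 members were higher and 6 lower in CAST/EiJ at E18.5 (27.1% of RMA and 14% of MAS5 probe sets), 1 and 6 in AKR/J (17% and 6.47%), 1 and 1 in RD7 (7.15% and 1.49%) and 0 and 0 in NOD.NON-H2-nb1 (5.04% and 2.09%). At P30.5 these were 4 and 6 in CAST/EiJ (24.8% and 12%), 0 and 0 in AKR/J (6.3% and 2.34%), 0 and 0 in RD7 (0.998% and 0.313%) and 0 and 1 in NOD.NON-H2-nb1 (6.11% and 1.96%).

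Syt1 in CAST/EiJ read 6.77, 7.53 and 7.27 at E18.5, against 8.95, 8.92 and 9.15 in C57BL6/J. No array overlapped, and the difference was -1.81 ± 0.19 (log2, SE, adjusted p = 8.65e-08). In AKR/J it read 7.85 and 7.85 (-1.16 ± 0.21, adjusted p = 0.000422), and in RD7 8.01, 8.49 and 7.66 (-0.95 ± 0.19, adjusted p = 0.00439). At P30.5 Syt1 read 9.27, 9.28 and 9.26 in CAST/EiJ, against 9.98, 10.28 and 10.05 in C57BL6/J (-0.84 ± 0.19, adjusted p = 0.00191). The call in AKR/J was lost on leaving out any 1 of the 5 arrays compared, and with the array date as a block it was -1.09 with an adjusted p of 0.00187. These values come from probe set 1438282_at, and the other 3 probe sets of Syt1 were called in 0 strains at either age. In CAST/EiJ at E18.5 they differed by 0.29 (1433884_at, MAS5), -0.24 (1421990_at, RMA) and -0.39 (1431191_a_at, RMA). At E18.5 the same probe sets, in that order, differed by -0.43, -0.78 and -0.79 in AKR/J and by -0.24, -0.52 and -0.87 in RD7. The brightest of them, 1433884_at, had signals of 4623, 6665 and 4923 in CAST/EiJ, against 4993, 4300 and 3845 in C57BL6/J, and these arrays overlapped.

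Syt13, a synaptotagmin that does not bind calcium, read 6.63, 6.79 and 6.44 in CAST/EiJ at E18.5, against 7.96, 8.12 and 8.06 in C57BL6/J (-1.42 ± 0.23, adjusted p = 5.24e-05). At P30.5 it read 8.98, 8.18 and 8.93, against 8.60, 8.32 and 8.63, and the arrays overlapped. The gain with age in CAST/EiJ (2.07 ± 0.23) was larger than in C57BL6/J (0.47 ± 0.23), by 1.60 ± 0.33 (adjusted p = 0.00393). The same test for Syt1 gave 0.98 ± 0.27 (adjusted p = 0.0321). Neither passed 0.001, and 0 members were called for a strain difference that changed with age, where 0.869%, 0.236%, 0.169% and 0.177% of RMA probe sets were called in CAST/EiJ, AKR/J, RD7 and NOD.NON-H2-nb1. At an unadjusted p under 0.05 limma gave 9, 10, 4 and 2 members in that order, and 16.2%, 17%, 11.4% and 8.47% of all genes. The second probe set of Syt13, 1451045_at, differed by -0.09 in CAST/EiJ at E18.5 (5.01, 5.62 and 5.12, against 5.18, 5.21 and 5.65 in C57BL6/J).

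Skeletal muscle markers were higher in every E18.5 array of all other strains than in any of C57BL6/J. Mesenchyme markers were so in AKR/J and, narrowly, in RD7 (lowest array 7.68, against a highest of 7.61). For CAST/EiJ, and likewise for NOD.NON-H2-nb1, the mesenchyme range overlapped that of C57BL6/J. Without the E18.5 arrays whose muscle markers averaged over 8 (2 CAST/EiJ, 0 AKR/J, 1 RD7, 1 NOD.NON-H2-nb1 and 3 C57BL6/J arrays were left), Syt1 in CAST/EiJ was -1.60 (adjusted p = 5.00e-07) and Syt13 was -1.43 (adjusted p = 0.000383), both past the threshold. The CAST/EiJ arrays that were left averaged 7.63 and 7.74 for muscle markers, still above the 5.49 to 5.70 of C57BL6/J, and no E18.5 array of AKR/J was left. The part of other tissue in these differences was not tested. Vamp5, whose best known site is muscle, read 6.84, 5.69 and 5.19 in CAST/EiJ, 6.23 and 6.34 in AKR/J and 5.73, 5.55 and 6.34 in RD7 at E18.5, against 4.72, 4.81 and 4.71 in C57BL6/J. Its differences were 1.16 ± 0.28 (adjusted p = 0.00294), 1.54 ± 0.31 (adjusted p = 0.00109) and 1.13 ± 0.28 (adjusted p = 0.0158). Without those arrays Vamp5 was 0.69 in CAST/EiJ (adjusted p = 0.0324) and 0.99 in RD7 (adjusted p = 0.0667). With the array date as a block, Snap25 (-1.38, adjusted p = 0.000162) and Syp (-1.11, adjusted p = 0.000393) were also called lower in CAST/EiJ at E18.5. Without the block they were -1.26 and -1.46 with adjusted p of 0.00208 and 0.0358, and without the arrays rich in muscle markers Snap25 was -0.87 (adjusted p = 0.0249). These values come from probe sets 1416828_at of Snap25 and 1448280_at of Syp. The second probe set of each gene had the opposite sign without the block and was not called. Snap25 1447763_at differed by 0.76 (limma adjusted p = 0.343). Syp 1456249_x_at differed by 1.89 (adjusted p = 0.251), at low MAS5 signals of 17.6 to 29.7 in CAST/EiJ.

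At P30.5 the lowest adjusted p in CAST/EiJ was that of Syt17, which read 7.19, 7.16 and 7.26, against 6.58, 5.70 and 6.37 in C57BL6/J (0.99 ± 0.18, adjusted p = 0.000244), short of 2-fold. Vamp1 read 8.57, 8.21 and 8.28 in CAST/EiJ, against 9.47, 8.98 and 9.22 in C57BL6/J (-0.87 ± 0.18, adjusted p = 0.000911), also short of 2-fold. The arrays of the 2 strains did not overlap for either gene. In NOD.NON-H2-nb1 the P30.5 arrays of Vamp1 read 8.66, 8.21 and 8.43 (-0.78 ± 0.18, adjusted p = 0.00758).

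**Figure D3:**
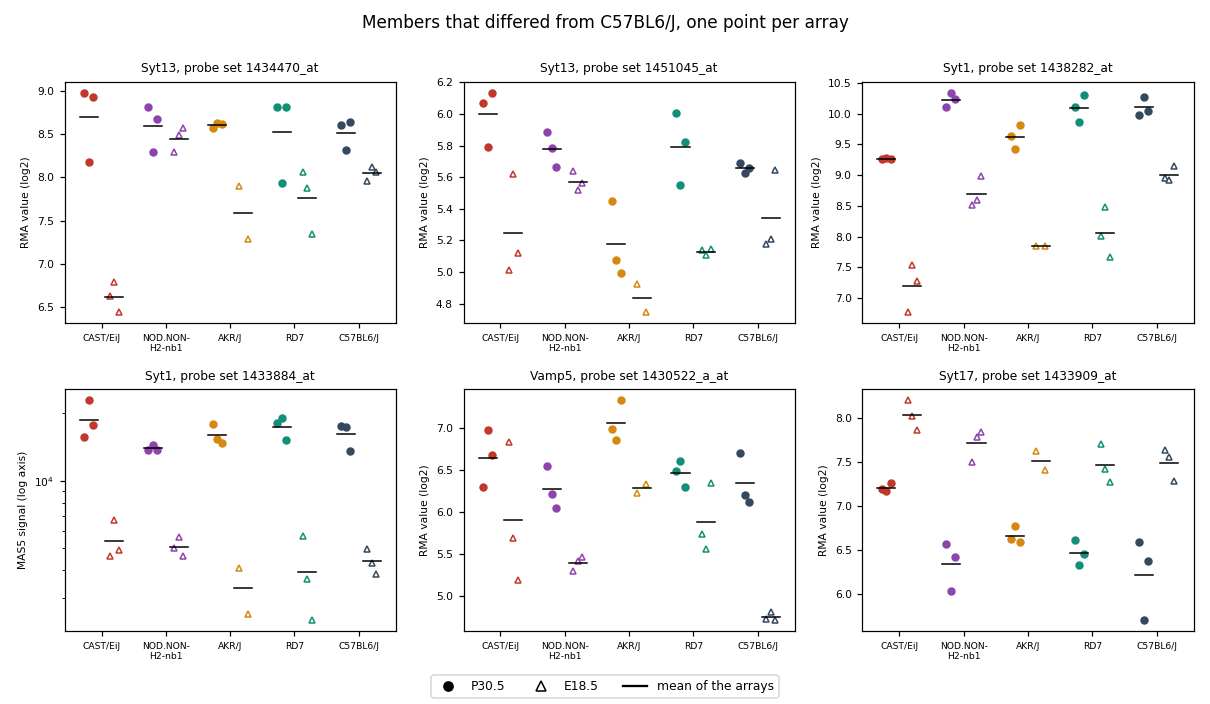
Each point is 1 array of Syt13 (2 probe sets), Syt1 (2 probe sets), Vamp5 and Syt17 by strain, with P30.5 arrays as circles to the left of E18.5 arrays as open triangles, in RMA values (log2) except the second Syt1 probe set (MAS5 signal, log axis). The E18.5 arrays of CAST/EiJ lie lowest for Syt1 1438282_at (6.77 to 7.53) and for Syt13 1434470_at (6.44 to 6.79), but not for the other probe set of either gene.

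Single probe sets of 5 members were called between strains where the rest of the gene was not. Probe set 1425530_a_at of Stx3 had MAS5 signals of 1025, 985 and 598 in the P30.5 arrays of NOD.NON-H2-nb1, against 14364, 20446 and 15696 in C57BL6/J. At E18.5 it had 66.8, 69.7 and 69.5, against 1602, 1473 and 1715. The probe set differed by -4.30 ± 0.21 at P30.5 (adjusted p = 1.29e-10) and by -4.54 ± 0.21 at E18.5 (adjusted p = 2.52e-11), yet it rose with age in NOD.NON-H2-nb1 by 3.62 ± 0.21, beside 3.38 ± 0.21 in C57BL6/J. The other 3 probe sets of Stx3 differed by -0.23 to 0.68 between these strains and were not called. Probe set 1456464_x_at of Syt11, a synaptotagmin without calcium binding, read 7.74, 7.62 and 7.61 in CAST/EiJ at P30.5, against 9.72, 9.69 and 9.67 in C57BL6/J, and 7.24, 7.95 and 7.67 at E18.5, against 9.84, 9.94 and 9.96. It differed by -2.04 (adjusted p = 3.85e-09) and by -2.30 (adjusted p = 5.55e-10), and its other 4 probe sets by -0.47 to 0.33. Syt4 1415844_at was lower in CAST/EiJ at both ages (-1.97 and -1.95) and in AKR/J at E18.5 (-2.20, adjusted p = 0.000847). At P30.5, Rab3c 1432415_at was lower in NOD.NON-H2-nb1 (-3.51), and at E18.5 Stx6 1441133_at was lower in CAST/EiJ (-3.38), both at MAS5 signals of 5.07 to 213 over all arrays. What sets these probe sets apart from the others of their genes was not tested.

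**Figure D4:**
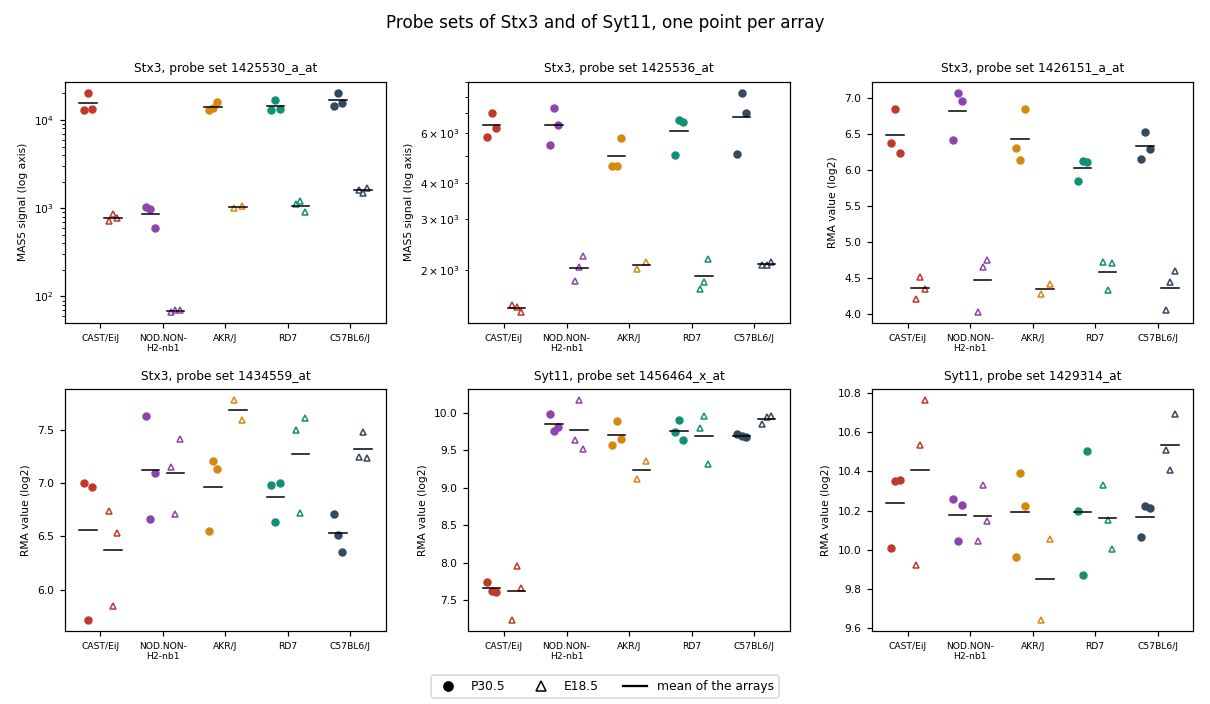
Each point is 1 array, plotted by strain for the 4 probe sets of Stx3 and for 2 of Syt11, with P30.5 arrays as circles to the left of E18.5 arrays as open triangles, on the scale named on each axis. Stx3 1425530_a_at lies lowest in NOD.NON-H2-nb1 at both ages (598 to 1025 at P30.5 and 66.8 to 69.7 at E18.5), and Syt11 1456464_x_at lies lowest in CAST/EiJ (7.24 to 7.95 over both ages), while the other probe sets shown do not set these strains apart.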

How the data were processed

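Retinal RNA pools of 5 strains at 2 ages, 29 arrays in 10 groups taken from the labels, had been hybridized to Affymetrix mouse arrays. The authors deposited log2 RMA values for 25444 of 45101 probe sets, and the filter behind that choice was not given in the sources used here. Of probe sets with a mean log2 MAS5 signal over 12, 2.59% were in the RMA table. The deposited MAS5 intensity values are linear signals, and on each array their mean without the 2% highest and lowest came to 500. The submitters' processing notes name MAS5. The array model named in the sources differs from the one these probe sets belong to.

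Genes were named for 34958 probe sets with 1 symbol, while 932 had several and 9211 were not listed. Limma 3.58.1 (R 4.3.3) was fitted to all 29 arrays with a mean per group (19 residual degrees of freedom) over 17 comparisons, with Benjamini-Hochberg adjustment over the whole table within each. The fit was tested on simulated data. Tables and figures used Python 3.11.15. The members, the lists and the markers were chosen with earlier results of these data known. Genes named are members, by role, with the values of those called and of some at odds between probe sets, and some of the list genes called in all 5 strains. Not every member is named.

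The labels give 4 dates, called array dates here, without saying what was dated. Arrays of the same date deviated together from their group means (mean correlation 0.261 over 120 pairs, against -0.121 over 258 pairs of other dates, and over 0.1 in 42 of 45 pairs of groups). The date was fitted as a block as an alternative. Other alternatives were MAS5 signals for all members, a pseudocount of 16, quantile normalization, a filter on probe sets under 6 (log2), fewer arrays, another variance prior, other choices of probe set and a threshold of 0.05. The number of arrays limits the precision. RNA pools are not single animals.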

Additional observations from a re-analysis of the deposited data

Results flagged for a closer look

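The gain with age of 2 members differed between CAST/EiJ and C57BL6/J at an adjusted p under 0.05 in a test of the difference itself. For Syt13 the CAST/EiJ minus C57BL6/J difference was 1.60 higher at P30.5 than at E18.5 (SE 0.33, limma adjusted p = 0.00393). For Syt1 it was 0.98 higher (SE 0.27, adjusted p = 0.0321). In both genes a second probe set did not show it, with 0.43 for Syt13 1451045_at (adjusted p = 0.312) and -0.09 for Syt1 1433884_at on the log2 MAS5 scale (adjusted p = 0.961). On the RMA scale Syt1 1421990_at and 1431191_a_at gave 0.51 and 0.82, of the same sign as the flagged value, with limma adjusted p of 0.233 and 0.210. Groups held 2 or 3 arrays, so no search for single outlying arrays was made.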

How the results depend on the processing

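Of 78 calls for single members (75 with age and 3 between strains), taken over all alternatives, 1410 of 1587 values kept their direction and their side of the threshold, 175 lost the call and 2 changed sign. That total includes alternatives that could lose no call, the threshold of 0.05 and the count of any called probe set. The pseudocount and the quantile normalization altered only members without RMA values. With the arrays of the compared groups alone 45 calls were kept and 33 lost, and with MAS5 signals for every member 54 and 24. With array date fitted as the replicate block, 16 members changed with age in CAST/EiJ, 19 in AKR/J, 18 in RD7, 15 in NOD.NON-H2-nb1 and 17 in C57BL6/J, and in all 5 strains 7 were higher and 1 lower. The block gave 4 calls at E18.5, 0 at P30.5 and 0 for a strain difference that changed with age, and it lost those of Rab3c and Vamp8 in C57BL6/J and of Syt1 in AKR/J, given beside those results, and no other. With the date as a random block there were 5 calls at E18.5. With the arrays of the compared groups alone, the age counts were 4 in RD7, 8 in CAST/EiJ and 9 in AKR/J, with 3 higher and 0 lower in all 5 strains. At an adjusted p under 0.05 with no minimum fold they were 31 in CAST/EiJ, 32 in AKR/J, 30 in RD7, 26 in NOD.NON-H2-nb1 and 32 in C57BL6/J, with 14 higher and 5 lower in all 5 strains, and there were 20 calls at E18.5, 11 at P30.5 and 2 for a strain difference that changed with age. MAS5 signals for every member gave 10 in AKR/J and 0 lower in all 5 strains. Counting a gene where any of its probe sets was called gave 2 lower in all 5 strains, 6 calls at E18.5 and 2 at P30.5. The next 2 alternatives were chosen after seeing the data. The brightest MAS5 probe set of each gene gave 0 lower in all 5 strains, and leaving out E18.5 arrays rich in muscle markers gave 8 in RD7. Leaving out 1 array at a time gave 10 to 13 in CAST/EiJ, 10 to 15 in AKR/J, 13 to 19 in RD7, 11 to 13 in NOD.NON-H2-nb1 and 12 to 14 in C57BL6/J, 5 to 6 higher and 0 to 1 lower in all 5 strains, 2 to 4 calls at E18.5, 0 to 1 at P30.5 and 0 to 0 for a strain difference that changed with age. Rab3c in C57BL6/J was -0.26 as the median over its RMA probe sets, and Syt1 in CAST/EiJ at E18.5 was 0.29 on its brightest MAS5 probe set. The cause of these changes was not tested. The median over probe sets gave values and no count, and without the RD7 arrays or the muscle-rich arrays (no AKR/J array at E18.5 was left) the counts over all 5 strains could not be given.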

Other observations

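Ganglion cell markers averaged 9.65 to 10.8 on the log2 MAS5 scale at P30.5, against 10.8 to 12.0 at E18.5, and pigment epithelium markers at E18.5 averaged 9.40 to 9.79 in CAST/EiJ, 9.41 to 9.88 in AKR/J, 9.61 to 10.02 in RD7, 7.56 to 9.46 in NOD.NON-H2-nb1 and 6.73 to 7.59 in C57BL6/J.

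Among members with several probe sets, Vamp4, which carries cargo between endosomes and the Golgi, had a MAS5 probe set (1434796_at) that rose in AKR/J, RD7, NOD.NON-H2-nb1 and C57BL6/J, by 1.21 to 1.56, and was 0.996 higher in CAST/EiJ, under the 2-fold limit, whereas its RMA probe set was called in 0 strains. The autophagy syntaxin Stx17 had RMA probe sets of opposite sign, with differences of 0.26 to 0.51 for 1428917_at and of -0.80 to -0.18 for 1427924_at, and neither was called in any strain. The second Sv2b probe set, 1434800_at, rose in all 5 strains by 2.56 to 3.47 on the log2 MAS5 scale.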
